A study of Mus musculus with 5 samples.

Results

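The 42 genes described here encode heat shock proteins, cytosolic chaperones and their helpers, and were taken by gene name from the 54699 genes of an FPKM table (fragments per kilobase of gene length, scaled between libraries by the authors). They fall into 8 classes: Hsp90 with 2 genes, Hsp70 and Hsp110 with 7, mitochondrial Hsp60 and Hsp10 with 2, Hsp40 with 8, small heat shock proteins with 7, the CCT chaperonin with 8, co-chaperones with 6 and heat shock factors with 2. All 42 were in the table, and 41 reached 1 FPKM in at least 1 library. The exception was Hspa1a, which had between 0 and 4 reads in every library.

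The RNA came from B16F10, a mouse melanoma cell line, in 5 libraries of 1 per group. Forced expression of Myod1, the regulator that turns cells to skeletal muscle, and forced expression of Pparg, the regulator of fat cell formation, were each delivered by lentivirus, and those cells were taken at day 8 with a control carrying the empty expression vector. Knockdown of Setdb1, a histone H3 lysine 9 methyltransferase, used a short hairpin RNA (shSetdb1) from lentivirus, and those cells were taken at day 7 with a control carrying the empty knockdown vector (shCtrl). Both controls were labelled wild type, and all 5 cultures had received a lentivirus and DMEM with serum. The promoter of the expression vector, the hairpin sequence and whether the cells were a pool or 1 clone are not given in the sources used here. With 1 library per group, no difference below could be set against the spread between cultures. "Rose", "fell" and "changed" are therefore used only for a change of at least 2-fold in FPKM + 1, with no p-value. Folds are printed as ratios of FPKM, with 95% intervals set on the log scale from both read counts, which cover counting error only.

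Chaperones bind unfolded or partly folded proteins. Hsp70 works in cycles of ATP hydrolysis with Hsp40 proteins, which deliver clients, and with nucleotide exchange factors such as Hsp110 and Bag proteins, while Hsp90 acts later on kinases and receptors. Small heat shock proteins hold unfolded proteins without ATP and several of them are abundant in heart and skeletal muscle, and the ring-shaped chaperonin CCT folds actin and tubulin. Heat shock factors bind inverted repeats of GAA, the heat shock element, in the promoters of many of these genes.

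The libraries held 16214802 to 18300670 reads, of which the 42 genes took between 1.33% (Myod1 expression) and 1.74% (empty knockdown vector). Myod1 stood at 260.1 FPKM in its own library and Pparg at 44.4 FPKM in its own, each with 0 reads in the other 4. Setdb1 stood at 0.867 FPKM after knockdown and at 9.82 FPKM in the empty knockdown vector control. All 7 melanocyte markers were above 1 FPKM in every library, and their summed FPKM was 3110 with Myod1, 2195 with Pparg, 7583 in the empty expression vector control, 8985 after Setdb1 knockdown and 8222 in the empty knockdown vector control. The 7 skeletal muscle markers summed to 21839 FPKM with Myod1 against 5.01 to 15.5 in the other libraries, and the 6 adipocyte markers to 317 FPKM with Pparg against 0.633 to 2.71. Leukocyte markers summed to 1.88 to 18.7 FPKM, fibroblast markers to 0.438 to 2.52 FPKM, and endothelial and epithelial markers to at most 0.596 FPKM in any library. In such bulk RNA, fewer cells of a type and less RNA per cell cannot be told apart.

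The promoters of 6 members are printed first because the members' data bear on them. Hspb1, Hspb6, Hspb7 and Hspb8 are small heat shock genes with large gains in at least 1 library, Hspe1 shares its promoter with Hspd1, and Hspa1b is the inducible Hsp70 gene with measurable reads. The sequences are from RefSeq (GRCm38.p6), 5′ to 3′ on the gene's strand, and run from 250 bases before the transcription start to 30 bases after it. Capitals mark heat shock elements found by letters.
Hspb1, chr5:135887669-135887948, plus strand: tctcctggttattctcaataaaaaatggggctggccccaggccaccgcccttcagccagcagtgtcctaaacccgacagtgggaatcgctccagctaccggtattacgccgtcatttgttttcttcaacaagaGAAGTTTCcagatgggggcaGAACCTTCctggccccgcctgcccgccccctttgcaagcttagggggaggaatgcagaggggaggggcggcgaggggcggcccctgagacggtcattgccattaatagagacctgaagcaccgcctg
Hspb6, chr7:30553051-30553330, plus strand: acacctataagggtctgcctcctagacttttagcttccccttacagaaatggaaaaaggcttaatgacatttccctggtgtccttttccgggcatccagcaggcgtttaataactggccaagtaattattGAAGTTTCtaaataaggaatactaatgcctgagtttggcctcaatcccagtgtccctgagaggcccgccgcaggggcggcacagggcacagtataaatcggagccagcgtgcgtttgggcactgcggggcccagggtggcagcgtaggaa
Hspb7, chr4:141420529-141420808, plus strand: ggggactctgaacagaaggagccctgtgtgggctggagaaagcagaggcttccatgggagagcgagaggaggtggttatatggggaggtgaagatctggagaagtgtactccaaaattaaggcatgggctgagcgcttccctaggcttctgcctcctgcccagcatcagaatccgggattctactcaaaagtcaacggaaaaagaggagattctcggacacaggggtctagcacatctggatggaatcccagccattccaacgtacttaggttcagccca
Hspb8, chr5:116422835-116423114, minus strand: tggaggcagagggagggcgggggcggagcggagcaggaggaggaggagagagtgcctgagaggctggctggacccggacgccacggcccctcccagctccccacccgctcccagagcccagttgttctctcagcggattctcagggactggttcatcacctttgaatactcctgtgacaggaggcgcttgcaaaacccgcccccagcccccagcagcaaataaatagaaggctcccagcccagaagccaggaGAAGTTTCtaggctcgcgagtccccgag
Hspe1, chr1:55087898-55088177, plus strand: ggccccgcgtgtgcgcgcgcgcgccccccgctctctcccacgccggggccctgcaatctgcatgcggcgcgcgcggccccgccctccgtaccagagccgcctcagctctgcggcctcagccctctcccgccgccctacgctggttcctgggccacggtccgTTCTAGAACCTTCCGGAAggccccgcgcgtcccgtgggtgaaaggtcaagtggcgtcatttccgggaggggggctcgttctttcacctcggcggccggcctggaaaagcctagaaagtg
Hspa1b, chr17:34959209-34959488, minus strand: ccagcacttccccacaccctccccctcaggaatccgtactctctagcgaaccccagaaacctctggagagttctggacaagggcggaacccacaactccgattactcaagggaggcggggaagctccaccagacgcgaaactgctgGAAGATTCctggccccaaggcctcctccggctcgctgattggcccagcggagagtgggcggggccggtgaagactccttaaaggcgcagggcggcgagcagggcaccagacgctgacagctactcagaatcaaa

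RefSeq promoter windows of 300 bases (250 before and 50 after each start) matched 34 of the 42 members, with 48 windows because some genes have several starts. A 2-unit heat shock element, GAANNTTC or TTCNNGAA, was present in 19 of these 48 windows (39.6%) and in 15.1% of all 32851 windows. It occurred in 17 of the 34 genes, among them Hspb1, Hspb3, Hspb6, Hspb8, Hspd1, Hspe1, Hspa1b, Dnaja1 and Bag3. The 3-unit element, GAANNTTC followed directly by NNGAA, contains both 2-unit forms and was searched on both strands. It was present in 7 of the 48 windows and in 0.603% of all windows, and its 5 genes were Chordc1, Dnajb6, Hspd1, Hspe1 and Hsph1. These windows are not all separate finds: those of Dnajb6 overlap and hold the same site, as do those of Hsph1. Hspd1 and Hspe1 also share theirs, and the window of the other Hspd1 start held none. Of those 5 genes, Hspd1 fell after Setdb1 knockdown, where 10.3% of all genes fell. The other 4 changed in no comparison, where 38.3% of all genes changed in at least 1 of the 3.

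In the Hspb1 window the elements lay 117 to 110 and 97 to 90 bases before the start, and in Hspb6 the element lay 120 to 113 bases before it, while the window of the other Hspb6 start held none. In Hspb8 it lay inside the transcript, at bases 3 to 10 counted from the start as base 1. The Hspb7 window held no heat shock element by these letters, which says only that they are not in this window. In Hspe1 the capitals mark a run of 4 units, 89 to 72 bases before the start. Hspd1 is transcribed the other way from the same stretch, and 285 bases of their windows are shared (chr1:55087898-55088182), so the same element stands in both. The promoters of Hspa1a and Hspa1b were identical at 296 of 300 bases, and each held an element 104 to 97 bases before its start.

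The E-box CANNTG, which is its own reverse complement and the core letters bound by factors such as Myod1, was present in 27 of the 48 member windows (56.3%) and in 72.3% of all windows. Its form CAGCTG was present in 6 of the 48 (12.5%) and in 16.3% of all windows. A direct repeat of AGGTCA with 1 base between the copies, the kind bound by Pparg with its partner RXR, was searched on both strands. It was present in 0 of the 48 and in 0.0396% of all windows.

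Across the 41 genes compared, 13 changed in at least 1 of the 3 comparisons with a treatment and 28 changed in none, where 38.3% of the 12842 genes compared changed in at least 1. With Myod1, 7 rose (Hspb1, Hspb2, Hspb3, Hspb7, Hspb8, Dnajb5 and Bag2) and 1 fell (Hsp90aa1), where 14.0% of all genes rose and 7.55% fell. With libraries scaled to equal FPKM sums, 7 rose and 4 fell, where 9.63% of all genes rose and 14.9% fell. With Pparg, 4 rose (Hspb1, Hspb6, Hspb7 and Hspa1b), where 4.22% of all genes rose, and 0 fell, where 2.30% of all genes fell. After Setdb1 knockdown 3 rose (Hspb1, Dnajb2 and Dnajb5) and 3 fell (Hsp90aa1, Hspd1 and Tcp1), where 9.34% of all genes rose and 10.3% fell. Between the empty vector controls 0 members rose or fell, where 1.23% and 1.44% of all genes did. The Myod1 and Pparg comparisons share 1 control library.

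Hspb1 was the only member of the 41 to rise in all 3 comparisons. Hspb7 rose with Myod1 and Pparg, Dnajb5 rose with Myod1 and after Setdb1 knockdown, and Hsp90aa1 fell with Myod1 and after Setdb1 knockdown. No member rose in one comparison and fell in another. The share of all genes with each of these patterns was not counted, so whether they are unusual cannot be told. The median log2 ratio of the 41 was 0.07 with Myod1, -0.05 with Pparg and -0.24 after Setdb1 knockdown, against 0.02, -0.02 and 0.005 over all genes compared. These medians moved with the setting: against the other control they were -0.06, -0.18 and -0.05, with equal FPKM sums -0.29, 0.03 and -0.32, and scaled by total reads -0.11, 0.09 and -0.19. The medians of all genes compared moved too. They were 0.02, -0.01 and 0.00 against the other control, -0.27, 0.04 and -0.01 with equal FPKM sums, and -0.11, 0.09 and 0.04 scaled by total reads. When each treatment library was also held against the other control library, all 7 gains and the 1 loss with Myod1, all 4 gains with Pparg, and all 3 gains with the losses of Hsp90aa1 and Hspd1 after Setdb1 knockdown passed 2-fold against both. Tcp1 did not. Of all genes compared, 11.9% rose and 4.42% fell against both controls with Myod1, 3.34% and 0.849% with Pparg, and 5.80% and 7.56% after knockdown.

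**Figure D1:**
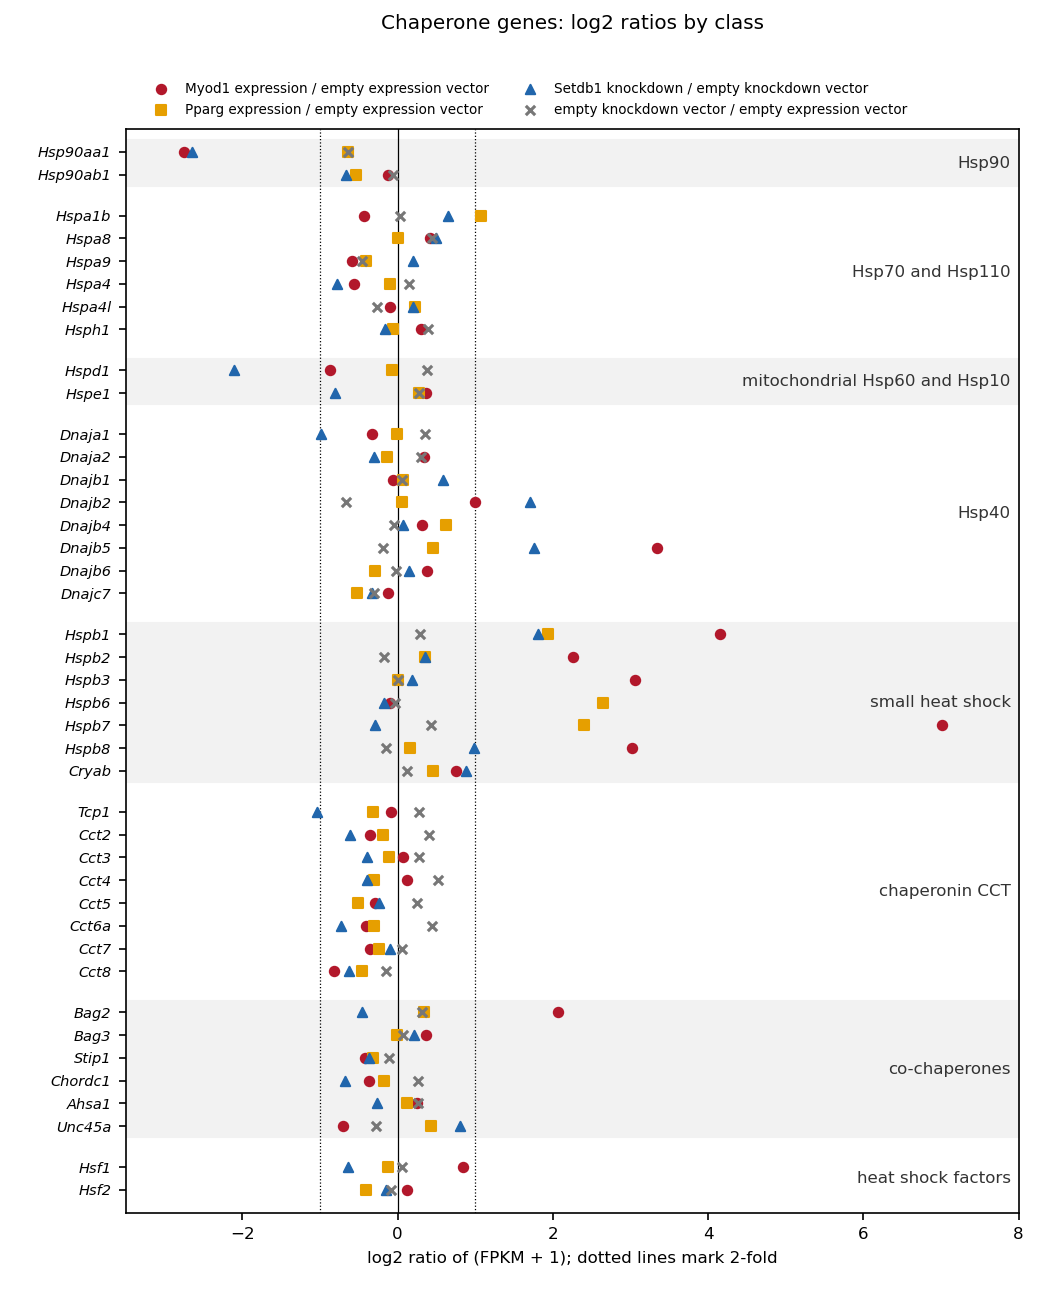
Log2 ratio of FPKM + 1 (horizontal axis) for the 41 compared members (rows, grouped by class), 1 point per comparison; crosses compare the empty vector controls with each other, and dotted lines mark 2-fold. The points farthest to the right are Hspb7 (7.01) and Hspb1 (4.16) with Myod1, followed by Dnajb5 (3.34) with Myod1, and the points far to the left are Hsp90aa1 with Myod1 (-2.76) and after Setdb1 knockdown (-2.65), while no cross passes a dotted line.

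The small heat shock proteins were the class in which the most members changed. Of the 7, 5 rose with Myod1, 3 with Pparg and 1 after Setdb1 knockdown, where 14.0%, 4.22% and 9.34% of all genes rose, and 0 fell. The gain of Hspb3 with Myod1 followed from the filter on low values. The summed level of the class was 922 FPKM with Myod1, 485 with Pparg, 266 in the empty expression vector control, 502 after Setdb1 knockdown and 282 in the empty knockdown vector control. Which gene supplied the sum differed: Cryab gave 77.5% and 79.8% of it in the control libraries and 82.8% after Setdb1 knockdown, but 58.1% with Pparg and 37.5% with Myod1. With Myod1 another 26.9% came from Hspb7, and with Pparg another 28.4% came from Hspb6. The median log2 ratio of the class was 3.02 with Myod1, 0.45 with Pparg and 0.35 after Setdb1 knockdown. The last of these became -0.03 when the dependence of ratios on GC content and transcript length was removed, 0.19 against the other control library and 0.89 with a pseudocount of 0.1 FPKM.

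Hspb7, a small heat shock protein of heart and skeletal muscle (chr4:141420779-141425311), stood at 248 FPKM with Myod1, 9.23 with Pparg, 0.928 in the empty expression vector control, 1.13 after Setdb1 knockdown and 1.598 in the empty knockdown vector control. The level was high in 1 library, intermediate in another and near 1 in the remaining 3. It rose 268-fold (198 to 362) with Myod1, the largest ratio among the members with reads in every library, and 9.94-fold (7.26 to 13.6) with Pparg. Its 42 reads in the control set the width of those intervals.

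Hspb1, also called Hsp25 in mouse and a binder of actin filaments (chr5:135887919-135889563), stood at 69.95 FPKM with Myod1, 14.2 with Pparg, 2.97 in the empty expression vector control, 15.9 after knockdown and 3.83 in the empty knockdown vector control. All 3 treatment libraries were above both controls. The rise was 23.6-fold (17.8 to 31.3) with Myod1, 4.77-fold (3.53 to 6.45) with Pparg and 4.16-fold (3.19 to 5.43) after knockdown. Of the 75-base windows along its transcript 47.3% also occur in the pseudogene Hsp25-ps1, which had 22, 4, 0, 9 and 2 reads in the same order of libraries.

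Hspb2 and Cryab (alpha B-crystallin) are neighbours on chromosome 9, transcribed in opposite directions. Hspb2 (chr9:50751078-50752354) stood at 93.03 FPKM with Myod1, 23.96 with Pparg, 18.6 in its control, 21.1 after knockdown and 16.3 in the knockdown control, and it rose 5.01-fold (4.38 to 5.74) with Myod1. Cryab (chr9:50751325-50756636) stood at 346, 281, 206, 415 and 225 FPKM in the same order, highest after Setdb1 knockdown. Its log2 ratios of 0.75, 0.45 and 0.88 were all below 1 against the matched controls, and the last became 1.01 against the other control library. The Cryab to Hspb2 ratio of FPKM was 3.72 with Myod1 and 11.1 to 19.7 in the other 4 libraries. The annotation places 252 exonic bases in both genes, 30.2% of Hspb2 and 17.0% of Cryab, and without a stated use of strand the reads there cannot be assigned.

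Hspb3, which forms complexes with Hspb2 in muscle (chr13:113662896-113663676), had 90 reads with Myod1 (7.33 FPKM), 0 with Pparg, 0 in either control and 2 after Setdb1 knockdown. It was at least 31.2-fold higher with Myod1 than the 0.235 FPKM that 3 reads would give in the control. Hspb3 entered the comparison only through the Myod1 library, so that rise followed from the filter.

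Hspb8, which works with Bag3 in the removal of damaged filament proteins (chr5:116408491-116422864), stood at 138 FPKM with Myod1, 18.1 with Pparg, 16.1 in its control, 29.7 after knockdown and 14.5 in the knockdown control. Only the Myod1 ratio passed the limit, at 8.57-fold (7.82 to 9.39). After Setdb1 knockdown the FPKM ratio was 2.05-fold (1.84 to 2.28) and the log2 ratio of FPKM + 1 was 0.98, just under the limit.

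Hspb6, or Hsp20, a partner of the other small heat shock proteins in muscle (chr7:30552178-30555443), stood apart from the rest of its class. It was at 138 FPKM with Pparg and between 18.2 and 21.2 FPKM in the other 4 libraries, at 19.7 with Myod1, 21.2 in the empty expression vector control, 18.2 after knockdown and 20.7 in the knockdown control. The rise with Pparg was 6.51-fold (6.05 to 7.01), while the log2 ratio with Myod1 was -0.10 and after knockdown -0.17. Of its 2299 exonic bases, the annotation also places 122 in Proser3, 77 in Gm38670 on the same strand and 3 in Lin37.

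The 5 genes of this class that rose with Myod1 did so in the library where the skeletal muscle markers were at 21839 FPKM, and the 3 that rose with Pparg did so where the adipocyte markers were at 317 FPKM. The part of those marker programmes in the result was not tested.

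**Figure D2:**
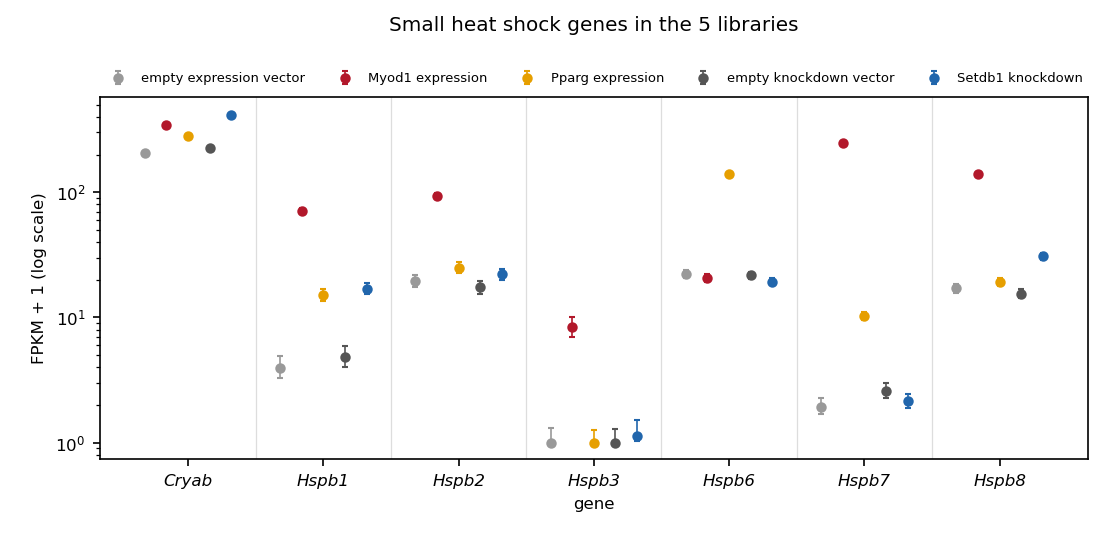
FPKM + 1 on a log scale (vertical axis) of the 7 small heat shock genes (horizontal axis) in the 5 libraries, with 95% Wilson intervals on the read share (counting error only). Hspb1, Hspb2, Hspb3, Hspb7 and Hspb8 are highest with Myod1, Hspb6 is highest with Pparg, and Cryab, at 206 to 415 FPKM, is high in every library.

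Hsp90 is encoded by an inducible gene, Hsp90aa1, and a constitutive one, Hsp90ab1, and they behaved differently. Hsp90aa1 (chr12:110690605-110702728) stood at 33.6 FPKM with Myod1, 149 with Pparg, 233 in the empty expression vector control, 22.8 after Setdb1 knockdown and 149 in the empty knockdown vector control. The Myod1 and knockdown libraries were low and the other 3 high. It fell 6.93-fold (6.62 to 7.26) with Myod1 and 6.501-fold (6.17 to 6.85) after Setdb1 knockdown. With Pparg the log2 ratio was -0.64 against its own control and 0.00 against the empty knockdown vector, and the controls themselves differed by a log2 ratio of -0.65.

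Hsp90ab1 (chr17:45567775-45573271) stood at 1326 FPKM with Myod1, 999 with Pparg, 1444 in its control, 873 after knockdown and 1381 in the knockdown control. No comparison passed 2-fold, and the log2 ratios were -0.12, -0.53 and -0.66. It was the most abundant of the 42 in 4 of the 5 libraries and was second to Hspa8 after Setdb1 knockdown. Hsp90aa1 made up 13.9% and 9.71% of the summed Hsp90 FPKM in the expression and knockdown controls and 13.0% with Pparg, against 2.47% with Myod1 and 2.55% after knockdown.

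Because 53.1% of the 75-base windows of Hsp90aa1 also occur in other annotated genes, its reads could be split by the counting. How shared reads were handled is not given in the sources used here. The gene that shares most of them, the pseudogene Gm12346, had 31 reads with Myod1, 165 with Pparg, 186 in its control, 25 after knockdown and 183 in the knockdown control, low in the same libraries as Hsp90aa1. Ratios also depended on GC content. Across 12679 genes Spearman's rho between GC and the log2 ratio was 0.22 with Myod1, 0.19 with Pparg, 0.39 after Setdb1 knockdown and -0.27 between the controls. Among the 41 members it was 0.40, 0.49, 0.55 and -0.18 in the same order. Hsp90aa1 has 43.7% GC. With that dependence and that on length removed, the Hsp90aa1 log2 ratios were -2.61 with Myod1 and -2.44 after knockdown.

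Hsp60 (Hspd1) and its lid Hsp10 (Hspe1) fold proteins in the mitochondrial matrix and are transcribed from the shared promoter printed above. Hspd1 (chr1:55077835-55088243) stood at 158 FPKM with Myod1, 277 with Pparg, 291 in its control, 87.1 after knockdown and 379 in the knockdown control. It fell 4.35-fold (4.21 to 4.499) after Setdb1 knockdown. With Myod1 the log2 ratio was -0.87, and it was -1.25 against the other control library. Hspe1 (chr1:55088132-55091307) stood at 161, 151, 125, 86.4 and 152 FPKM in the same order, lowest after knockdown but with a log2 ratio of -0.81, and at 0.36 with Myod1.

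The ratio of Hspd1 to Hspe1 FPKM was 2.33 (2.24 to 2.42) and 2.50 (2.41 to 2.59) in the expression and knockdown controls, 1.83 (1.77 to 1.90) with Pparg, 0.986 (0.947 to 1.03) with Myod1 and 1.01 (0.959 to 1.06) after Setdb1 knockdown. It was thus low in the same libraries in which the Hsp90aa1 to Hsp90ab1 ratio was low. That ratio was 0.161 (0.158 to 0.164) and 0.108 (0.105 to 0.110) in the controls, 0.149 (0.146 to 0.152) with Pparg, 0.0253 (0.0242 to 0.0265) with Myod1 and 0.0262 (0.0249 to 0.0275) after knockdown. Of the Hspd1 windows 33.7% occur in other annotated genes, and the main one, the pseudogene Hspd1-ps3, had 155, 326, 281, 80 and 368 reads with Myod1, with Pparg, in the expression control, after knockdown and in the knockdown control. Of the Hspe1 windows 29.1% occur in other annotated genes, and 112 exonic bases are placed in both Hspd1 and Hspe1.

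**Figure D3:**
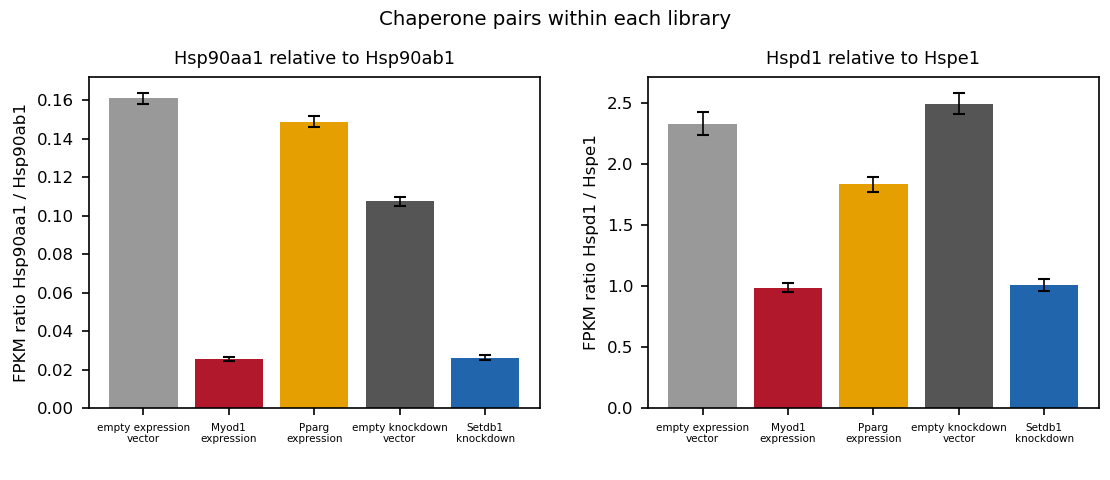
Ratio of FPKM within each library for Hsp90aa1 over Hsp90ab1 (left) and Hspd1 over Hspe1 (right), with 95% intervals for counting error. In each panel the Myod1 and Setdb1 knockdown bars are the lowest pair, at 0.0253 and 0.0262 on the left and 0.986 and 1.01 on the right.

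In the Hsp70 class, 1 of the 6 genes compared rose, with Pparg, where 4.22% of all genes rose, and 0 fell in any comparison. Hspa1b, the stress-inducible Hsp70 (chr17:34956436-34959238), stood at 1.38 FPKM with Myod1, 5.73 with Pparg, 2.21 in its control, 4.13 after knockdown and 2.28 in the knockdown control. It rose 2.599-fold (2.08 to 3.25) with Pparg, from 101 to 308 reads, a log2 ratio of 1.07. Its twin Hspa1a had 0, 0, 1, 4 and 0 reads with Myod1, with Pparg, in the expression control, after knockdown and in the knockdown control, so its level was not resolved at this depth. All of the 55.8% of Hspa1b windows that are not unique occur in Hspa1a, and the reads of the pair could not be separated with certainty.

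Hspa8, the constitutive Hsp70 Hsc70, stood at 627 FPKM with Myod1, 469 with Pparg, 468 in its control, 892 after knockdown and 635 in the knockdown control. It supplied 61.4% to 79.2% of the summed FPKM of the class. Its log2 ratios were 0.42, 0.00 and 0.49, beside 0.44 between the controls. Of its 75-base windows 68.6% also occur in other annotated genes, but Gm15459, the gene with most of them, had 0 reads in all 5 libraries.

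The remaining members of the class changed in no comparison. Hspa9, the mitochondrial Hsp70, ranged from 119.6 FPKM with Myod1 to 181 FPKM in the empty expression vector control. Among the Hsp110 exchange factors, Hspa4 ranged from 62.3 FPKM after Setdb1 knockdown to 108 FPKM in the knockdown control, a log2 ratio of -0.78, Hsph1 from 13.1 to 18.3 FPKM, and Hspa4l from 0.822 to 1.57 FPKM.

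Of the 8 Hsp40 genes, 1 rose with Myod1, 0 with Pparg and 2 after Setdb1 knockdown, where 14.0%, 4.22% and 9.34% of all genes rose, and 0 fell. Dnajb5 (chr4:42949814-42959425), a class B Hsp40 of the same group as Dnajb1, stood at 23.01 FPKM with Myod1, 2.25 with Pparg, 1.37 in its control, 6.01 after knockdown and 1.08 in the knockdown control. It rose 16.8-fold (14.1 to 19.99) with Myod1 and 5.57-fold (4.54 to 6.84) after knockdown. Its share of the summed Hsp40 FPKM was 13.1% with Myod1, 4.18% after knockdown and 0.778% to 1.88% in the other libraries.

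Dnajb2 (chr1:75236406-75245692), an Hsp40 with ubiquitin-binding motifs that delivers clients for degradation, stood at 21.8 FPKM with Myod1, 10.9 with Pparg, 10.4 in its control, 22.5 after knockdown and 6.21 in the knockdown control. The Myod1 and Setdb1 knockdown libraries stood above the other 3. The rise after knockdown was 3.63-fold (3.27 to 4.03) against its own control, and the log2 ratio was 1.04 against the other control. With Myod1 the log2 ratio was 0.997 against its own control, just under the limit, and 1.66 against the other.

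The other Hsp40 genes changed in no comparison. Dnaja1, the class A partner of Hspa8, stood at 11.3 FPKM after knockdown and 23.3 FPKM in the knockdown control, a log2 ratio of -0.98, just under the limit. That ratio was -1.06 with equal FPKM sums and -0.39 with GC and length dependence removed. Dnajb1, the class B partner of Hspa8, was at 25.2 FPKM after knockdown and at 15.2 to 16.7 FPKM in the other 4 libraries. Dnajb4 ranged from 1.27 to 2.62 FPKM and was highest with Pparg. Dnaja2 ranged from 41.7 to 58.4 FPKM, Dnajb6, a suppressor of protein aggregation, from 12.8 to 20.9 FPKM, and Dnajc7, which also binds Hsp90, from 14.00 to 22.2 FPKM.

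Bag2 and Bag3 are both nucleotide exchange factors of Hsp70, and 1 of them changed, where 38.3% of all genes changed in at least 1 comparison. Bag2 (chr1:33745484-33757795), an inhibitor of the Hsp70-bound ubiquitin ligase Chip, stood at 64.5 FPKM with Myod1, 18.7 with Pparg, 14.6 in its control, 13.2 after knockdown and 18.5 in the knockdown control. It rose 4.41-fold (4.07 to 4.78) with Myod1. Bag3, the partner of Hspb8, ranged from 33.4 FPKM with Pparg to 43.4 FPKM with Myod1. The Bag2 to Bag3 ratio of FPKM was 1.49 (1.40 to 1.58) with Myod1 and 0.322 to 0.561 in the other libraries.

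The Hsp90 co-chaperones among the members changed in no comparison. Stip1, which bridges Hsp70 and Hsp90, ranged from 109.5 to 154 FPKM, Ahsa1, the activator of the Hsp90 ATPase, from 40.3 to 48.7 FPKM, and Chordc1 from 3.27 to 5.86 FPKM. Unc45a, the general form of the myosin chaperone, stood at 10.7 FPKM with Myod1, 24.7 with Pparg, 18.1 in its control, 26.4 after knockdown and 14.7 in the knockdown control, with log2 ratios of -0.70, 0.43 and 0.80. Hsf1, the main activator of the heat shock response, stood at 22.2 FPKM with Myod1 and 7.65 after knockdown, against 11.95 and 12.5 in their controls and 10.9 with Pparg, with log2 ratios of 0.84 with Myod1 and -0.64 after knockdown. Hsf2 ranged from 1.57 to 2.69 FPKM.

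**Figure D4:**
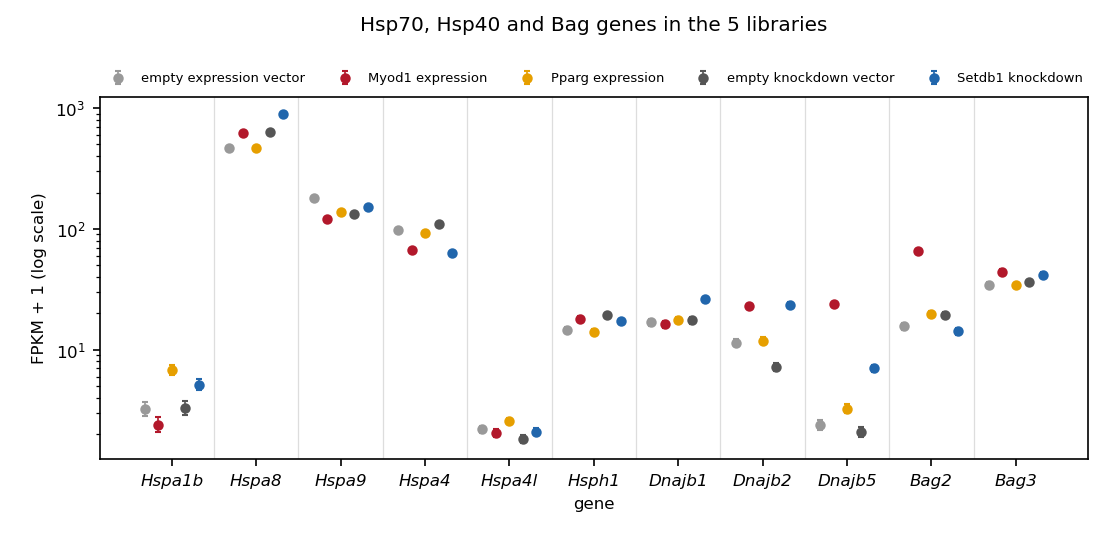
FPKM + 1 on a log scale (vertical axis) of 11 Hsp70, Hsp40 and Bag genes (horizontal axis) in the 5 libraries, with 95% Wilson intervals for counting error. Dnajb5 and Bag2 are highest with Myod1, at 23.01 and 64.5 FPKM, Hspa1b is highest with Pparg at 5.73 FPKM, and Hspa8 is the highest of these genes in all 5 libraries.

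The 8 subunits of the CCT ring are the products of separate genes and assemble in equal numbers. Their summed level was 831 FPKM with Myod1, 828 with Pparg, 1027 in the empty expression vector control, 885 after Setdb1 knockdown and 1212 in the empty knockdown vector control. These sums were lower in the treated libraries than in their controls. Of the 8 subunits, 1 passed 2-fold, Tcp1 after knockdown, where 10.3% of all genes fell. With Myod1 and with Pparg 0 fell, where 7.55% and 2.30% of all genes did.

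Tcp1, the alpha subunit (chr17:12915701-12925067), stood at 79.5 FPKM with Myod1, 67.2 with Pparg, 84.2 in its control, 49.2 after knockdown and 102 in the knockdown control. It fell 2.07-fold (1.995 to 2.14) after knockdown, a log2 ratio of -1.03. That ratio was -0.76 against the other control library and -0.55 once the dependence on GC and length was removed, so the call rested on the setting. The antisense neighbour Acat3, which shares 21.1% of the Tcp1 windows, had 2 to 6 reads per library.

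The other subunits are given in the order Myod1, Pparg, empty expression vector, Setdb1 knockdown and empty knockdown vector. Cct2 stood at 149, 167, 191, 164 and 252 FPKM and Cct3 at 90.6, 80.1, 86.3, 79.99 and 105 FPKM. Cct4 stood at 66.8, 49.7, 61.4, 67.2 and 88.5 FPKM and Cct5 at 158, 136, 193, 194 and 229.5 FPKM. Cct2 and Cct5 were lower in every treatment than in the matched control, whereas Cct3 and Cct4 with Myod1 were slightly above it.

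Cct6a stood at 64.4, 69.1, 85.5, 69.6 and 116 FPKM and Cct7 at 145, 157, 185, 179 and 192 FPKM. Cct8 stood at 78.6, 102, 139.8, 81.7 and 126 FPKM and had the lowest ratio of the subunits with Myod1, a log2 ratio of -0.82. The empty knockdown vector control was the highest of the 5 libraries for 7 of the 8 subunits, the exception being Cct8.

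The median log2 ratio of the 8 was -0.32 with Myod1, where 6 of 8 were below 0, -0.30 with Pparg, where 8 of 8 were, and -0.51 after knockdown, where 8 of 8 were. Of the 12842 genes compared, 6155, 6672 and 6091 were below 0 in these comparisons. Between the controls it was 0.28, with 7 of 8 above 0, as were 5998 of the 12842 genes. These directions depended on the scaling and the control. With Myod1 8 of 8 were below 0 with libraries scaled to equal FPKM sums and 5 of 8 with GC and length dependence removed. With Pparg 7 of 8 were below 0 when scaled by total reads. After knockdown 6 of 8 were below 0, with a median of -0.16, against the other control. Scaling moves all genes alike, and the median of all genes in these settings was -0.27, 0.00, 0.09 and 0.00, in the same order.

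**Figure D5:**
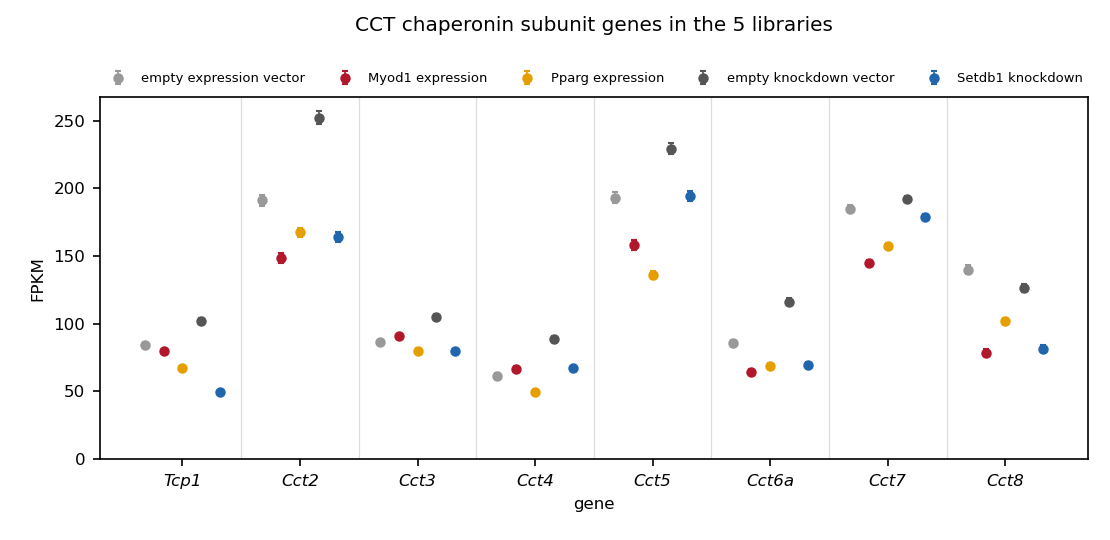
FPKM (vertical axis, linear from 0) of the 8 CCT subunit genes (horizontal axis) in the 5 libraries, with 95% Wilson intervals for counting error. The empty knockdown vector control is highest for every subunit except Cct8, and the largest distance from control in ratio is that of Tcp1 after Setdb1 knockdown, 49.2 against 102 FPKM.

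Outside the 42, 62 further genes of the cytosolic chaperone system were listed by role: other Hsp70 system genes, Hsp90 cofactors, cytosolic Hsp40 genes, small heat shock genes, prefoldin with CCT cofactors, and heat shock factors. Of the 53 compared, 5 rose and 6 fell with Myod1, 1 rose and 0 fell with Pparg, and 3 rose and 4 fell after Setdb1 knockdown. The shares of all genes were 14.0% and 7.55%, 4.22% and 2.30%, and 9.34% and 10.3%. Against both controls 4 rose and 2 fell with Myod1, 1 rose and 0 fell with Pparg, and 2 rose and 2 fell after knockdown, where the shares of all genes were 11.9% and 4.42%, 3.34% and 0.849%, and 5.80% and 7.56%. Of the genes named next, Unc45b, Smyd1, Dnaja4 and Dnajb13 reached 1 FPKM only in libraries where they rose, so their counted gains followed from the filter. Unc45b, the muscle form of Unc45a and a chaperone of myosin, stood at 305 FPKM with Myod1, with 0 to 2 reads in every other library, and was at least 7460-fold higher than its control. Smyd1, a muscle methyltransferase that works with it, stood at 271 FPKM with Myod1 and had 0 or 1 read elsewhere, at least 6716-fold higher.

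Pdcl3, a phosducin-like cofactor of CCT, stood at 41.8 FPKM with Myod1 and 7.39 to 9.75 FPKM elsewhere, 4.32-fold higher than its control. Dnaja4, another class A Hsp40, rose with Myod1 and after knockdown against both controls, at 2.78 and 1.28 FPKM against 0.102 and 0.0833 in their controls. Hspa12b fell with Myod1, at 0.967 against 4.85 FPKM, as did Hsf4, at 14.2 against 29.5 FPKM. Dnajb13 rose with Pparg, at 3.72 against 0.471 FPKM. After Setdb1 knockdown Hspa2, the testis-enriched Hsp70, rose from 3.64 to 13.9 FPKM, Hspa13 fell from 4.83 to 1.11 FPKM and Dnajc13, a regulator of endosomes, fell from 9.62 to 3.23 FPKM.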

How the data were processed

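Per the labels' protocols, TRIzol was used to isolate total RNA and a NEBNext Ultra RNA kit to prepare libraries from it. The submitters' processing notes name CASAVA, HISAT2, featureCounts 1.5.0-p3 and GRCm38. Strand, poly(A) selection and the handling of shared reads are not given in the sources used here. The authors deposited FPKM values, already scaled between libraries: FPKM times gene length was a whole multiple of 1 step per library (100% of values, within 0.01 of a read), which gave back reads per gene, and the scale matched median-of-ratios size factors.

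Genes with at least 1 FPKM in at least 1 library were compared (12842) as log2 ratios of FPKM + 1, and a change needs a log2 ratio of at least 1 in size. No p-value can be given with 1 library per group, and no count test was run because it needs replicates. Intervals on single FPKM values are 95% Wilson intervals on read shares. Those on folds and on ratios of gene pairs are 95% log-scale intervals from both read counts. The floor is 3 reads. PCR copies are not told apart, so intervals cover counting error only. Python 3.11.15, pandas 2.3.3 and scipy 1.17.1 were used, and the scripts were tested on simulated data. All 42 members may be named by class, with values in all libraries for those that changed, the Hsp90 genes and the CCT subunits; other genes are named where they changed against both controls. The members and lists were chosen with earlier results of these data known. Shared 75-base windows, along the longest coding transcript of each member, and exon overlap were computed from GENCODE M21. In it, 41 of the 42 members have the coordinates of the table. GC content was that of the longest transcript of each gene there, coding or not. The alternatives covered pseudocount, filter, fold limit, scaling and control library.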

Additional observations from a re-analysis of the deposited data

How the results depend on the processing

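Of 1435 log2 ratios of single members recomputed under the alternatives, 415 moved by more than counting error, and 0 of those that had passed 2-fold reversed. The 1435 include the alternatives with another filter on low values, under which the ratio of a single gene cannot move or reverse. The count of members that fell with Myod1, 1 as reported, became 4 with FPKM columns scaled to equal sums (adding Cct8, Hspd1 and Unc45a), 3 with scaling on the 75th percentile, 3 scaled by total recovered reads and 2 against the other control library, where 14.9%, 10.4%, 10.02% and 7.51% of all genes fell. The first 3 scalings moved the Myod1 median of all genes from 0.02 to -0.27, -0.11 and -0.11. At a 4-fold limit, 2 members rose with Pparg (Hspb6 and Hspb7) and 0 after Setdb1 knockdown, where 3 passed 2-fold; 0.709% and 0.919% of all genes did. At that limit 2 fell after knockdown (Hsp90aa1 and Hspd1), as did 1.495% of all genes. With a pseudocount of 0.1 FPKM, 5 rose after knockdown, adding Hspb3, with 2 reads against 0, and Hspb8, where 15.04% of all genes rose. After knockdown Tcp1 no longer passed 2-fold against the other control, scaled by total reads or with GC and length dependence removed. There 2 members fell in each, where 10.99%, 9.89% and 8.88% of all genes did. Dnaja1 passed 2-fold after knockdown with equal column sums, 75th percentile scaling or a pseudocount of 0.1 FPKM. There 4 members fell in each, where 12.05%, 12.1% and 16.3% of all genes did. The scaling by total reads, the GC and length correction and the background of genes with a mean of at least 10 FPKM were chosen after seeing the data; in that background 14.2% rose and 7.67% fell with Myod1, 3.57% and 2.61% with Pparg, and 10.4% and 10.9% after knockdown. Depth limits Hspa1a and Hspb3. No paired analysis was possible because each group has 1 library.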

Other observations

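Chaperones of other compartments were listed as well. In the list of 15 endoplasmic reticulum chaperones, 1 rose and 4 fell with Myod1, 0 rose and 1 fell with Pparg, and 0 rose and 2 fell after Setdb1 knockdown. Of all genes compared, 14.0% rose and 7.55% fell with Myod1, 4.22% and 2.30% with Pparg, and 9.34% and 10.3% after knockdown. Against the other control library the list's counts were 0 and 3, 0 and 0, and 1 and 2, where 15.1% and 7.51%, 5.52% and 2.41%, and 8.72% and 10.99% of all genes rose and fell. Its median log2 ratio was -0.67 with Myod1, -0.59 with Pparg and 0.08 after knockdown, and against the other control -0.44, -0.33 and -0.18, so the knockdown median turned sign. With Pparg 15 of 15 were below 0 (6672 of 12842 among all genes), and 13 of 15 against the other control. Between the empty vector controls themselves the median was -0.21, with 13 of 15 below 0 (6471 of 12842 among all genes). Hsp90b1, the Hsp90 of this compartment, stood at 32.5 FPKM with Myod1, 83.1 with Pparg, 147.8 in the empty expression vector control, 40.6 after knockdown and 90.2 in the empty knockdown vector control, so that it fell 4.55-fold with Myod1 and 2.22-fold after knockdown. Hspa5, its Hsp70 (BiP), stood at 168 FPKM with Myod1, 136 with Pparg, 272 in the expression control, 113 after knockdown and 229 in the knockdown control. Hspa5 passed 2-fold against both controls after knockdown. Pdia4, a disulfide isomerase, fell from 205 to 83.0 FPKM with Myod1, and Serpinh1, the collagen chaperone, from 457 to 202 FPKM.

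The list of 9 further mitochondrial chaperones and proteases had 2 genes that rose and 0 that fell with Myod1, 0 and 0 with Pparg, and 1 and 0 after Setdb1 knockdown, where 14.0% and 7.55%, 4.22% and 2.30%, and 9.34% and 10.3% of all genes did. The last became 0 and 0 against the other control, where 8.72% and 10.99% of all genes rose and fell. Clpx, the unfolding subunit of a matrix protease, rose with Myod1 from 9.09 to 28.9 FPKM, and Grpel1, the exchange factor of mitochondrial Hsp70, rose from 23.4 to 51.6 FPKM. In that same library Hspd1 stood at a log2 ratio of -0.87 and Hspa9 at -0.59, and at -1.25 and -0.13 against the other control.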
